A study of Mus musculus with 10 samples.

Results

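Laminins are the proteins that give a basement membrane its first layer, and 9 genes of their chains (Lama1 to Lama5, Lamb1 to Lamb3 and Lamc1) were read in the pancreas of mice lacking a pair of Hippo kinases. They were found by the gene symbol of their array features, and all 9 of 9 were measured among 19938 genes, each by 1 feature that names no other gene. The DKO group (5 samples) carried PDX1Cre, Mst1-/- and Mst2L/L on a mixed strain background, and the control group (5 samples) had the same background, with a genotype given only as control. Mst1-/- is a null allele in every cell of the mouse, while Mst2 is lost only in cells that made Cre from the Pdx1 promoter, or descend from them, chiefly the epithelium that grows from pancreatic progenitors. Vessels, nerves and connective tissue have another origin, so in DKO mice their cells would lack MST1 alone. Age and sex are not given in the labels, nor whether samples were pooled.

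A laminin is a cross-shaped trimer of 1 alpha, 1 beta and 1 gamma chain, joined in a coiled coil inside the cell before secretion. The gamma 1 chain, coded by Lamc1, is shared by most laminins. The alpha chain carries the globular domains that bind integrins and dystroglycan, and therefore differs between the basement membranes of epithelia, vessels, nerves and muscle. In the pancreas, basement membranes surround acini, ducts and capillaries, and beta cells lean on those of the capillaries. Loss of MST1 and MST2 frees the coactivators YAP and TAZ, which act through TEAD transcription factors.

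RNA of whole pancreas was read on Affymetrix Mouse Gene 1.0 ST arrays, and all levels below are log2 intensities as deposited, 1 value per gene and array. Array medians over all array features lay between 7.12 and 7.15. Over the tested genes alone they were 7.56 to 7.63 in DKO and 7.55 to 7.59 in control arrays. Pairs of arrays correlated with r of 0.976 to 0.995 over genes. Features differ in their affinity for RNA, so the level of 1 chain was not set against that of another. Acinar markers, which check the tissue, averaged 12.13 to 12.55 in DKO arrays and 12.57 to 12.71 in control arrays over 10 genes. Hepatocyte markers averaged 11.48 in DKO replicate 1 and 6.67 to 7.79 in the other 9 arrays. Stk4, which codes for MST1, stood at 5.13 ± 0.06 in DKO and 5.15 ± 0.09 in control arrays (SD, n = 5 each). That is within the background range of 3.99 to 5.75, so Stk4 did not check the labels. The range was given by 3 Y-linked genes on arrays with high Xist, a sex-linked gene, and by Xist on the other arrays. Its upper end was Xist in control replicate 5. The MST2 gene Stk3 was not analysed here.

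The promoters of the 2 genes that passed the test, and of the 1 chain gene whose promoter held a TEAD motif, are shown because TEAD factors are the partners of YAP and TAZ. Each line gives the 250 bases before a start site, 5′ to 3′ on the strand of the gene, from RefSeq on build GRCm38.p6. Capitals mark a match to the TEAD motif GGAATG on either strand.
Lama5, chr2:180225860-180226109, minus strand: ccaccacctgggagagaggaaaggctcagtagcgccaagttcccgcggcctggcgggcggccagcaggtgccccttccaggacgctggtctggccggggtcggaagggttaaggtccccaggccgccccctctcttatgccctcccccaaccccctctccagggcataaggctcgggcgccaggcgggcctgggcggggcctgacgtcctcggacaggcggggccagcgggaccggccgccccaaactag
Lamb1, chr12:31265043-31265292, plus strand: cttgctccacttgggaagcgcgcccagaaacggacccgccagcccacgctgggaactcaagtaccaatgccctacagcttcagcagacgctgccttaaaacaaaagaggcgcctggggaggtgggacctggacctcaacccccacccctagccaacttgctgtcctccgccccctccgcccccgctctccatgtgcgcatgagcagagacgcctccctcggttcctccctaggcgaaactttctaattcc
Lamb3, chr1:193301993-193302242, plus strand: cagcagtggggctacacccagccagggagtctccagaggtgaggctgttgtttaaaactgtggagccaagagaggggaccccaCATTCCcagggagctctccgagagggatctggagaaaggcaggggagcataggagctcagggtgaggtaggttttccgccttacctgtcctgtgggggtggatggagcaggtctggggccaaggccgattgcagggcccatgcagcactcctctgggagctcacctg

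Promoters of 5 of the 9 chain genes were found, 6 in all since Lamb3 has a pair of start sites. In windows that also took in the 50 bases after the start, 1 of these 6 held GGAATG or its reverse CATTCC, 167 bases before a start of Lamb3, against 14.7% of all 32851 promoters. None of the 6 held the AP-1 motif TGANTCA, which 7.81% of all promoters held. The Lama5 promoter had 72.4% G and C bases and 19 CpG steps in its 250 bases, and that of Lamb1 62.0% and 14. Over all promoters the middle values were 52.4% and 6. Among chains that did not pass, the Lama2 promoter, with 47.2% and 0 CpG steps, and that of Lamb2, with 43.6% and 3, lay below the middle in both measures. The 2 promoters of Lamb3 had 58.8% and 61.2% G and C bases, above the middle and near Lamb1. Their 2 and 3 CpG steps lay below the middle.

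Of the 9 chains 2 rose in DKO pancreas, the alpha chain gene Lama5 by 1.64-fold and the beta chain gene Lamb1 by 1.32-fold, and none fell. They passed limma over all genes at an adjusted p of 0.05, which 2.44% of all genes passed, 2.08% as higher and 0.366% as lower in DKO. In both genes every DKO array lay above every control array, which held for 3.52% of all genes, while in 1.28% every DKO array lay below every control array. The changes of 8 of 9 chains were above 0, as were those of 47.6% of all genes, and the median change of the chains was 0.11 against -0.006 over all genes. With unadjusted p-values the count of chains at 0.05 was also 2.

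Lama5 codes for the alpha 5 chain, the main alpha chain of adult epithelial basement membranes, which is also made by endothelium. Its level was 9.59, 9.20, 9.61, 9.46 and 9.31 in DKO replicates 1 to 5, and 8.89, 8.77, 8.75, 8.34 and 8.86 in control replicates 1 to 5. The groups did not overlap, and the lowest DKO array was replicate 2, while control replicate 4 stood apart below the other controls. The log2 change was 0.71 ± 0.11 (SE), with a 95% interval of 0.46 to 0.97, an adjusted p of 0.00878 (limma) and rank 144 of all genes by p. With any 1 array left out it was 0.62 to 0.77, with an adjusted p of at most 0.0276. Omission of both control replicate 2 and DKO replicate 4 gave a change of 0.72 with an adjusted p of 0.0630.

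Lamb1 codes for the beta 1 chain, which pairs with the gamma 1 chain in laminins of many tissues. Its level was 10.30, 10.28, 10.49, 10.40 and 10.36 in DKO replicates 1 to 5, against 10.11, 9.995, 9.80, 9.78 and 10.15 in control replicates 1 to 5. All DKO arrays lay above all control arrays, and the closest were DKO replicate 2 and control replicate 5. The DKO arrays were also the tighter group, with an SD of 0.08 against 0.17 in control (n = 5 each). The log2 change was 0.40 ± 0.08 (SE), with a 95% interval of 0.22 to 0.58 and an adjusted p of 0.0285 (limma). That call was close to the threshold. It ended on leaving out DKO replicate 3, 4 or 5 or control replicate 2, 3 or 4, with changes of 0.35 to 0.45 over all 10 omissions and a highest adjusted p of 0.0742. It also ended after subtraction of array medians (0.36, adjusted p = 0.0677) and without moderated variance (adjusted p = 0.0727).

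**Figure D1:**
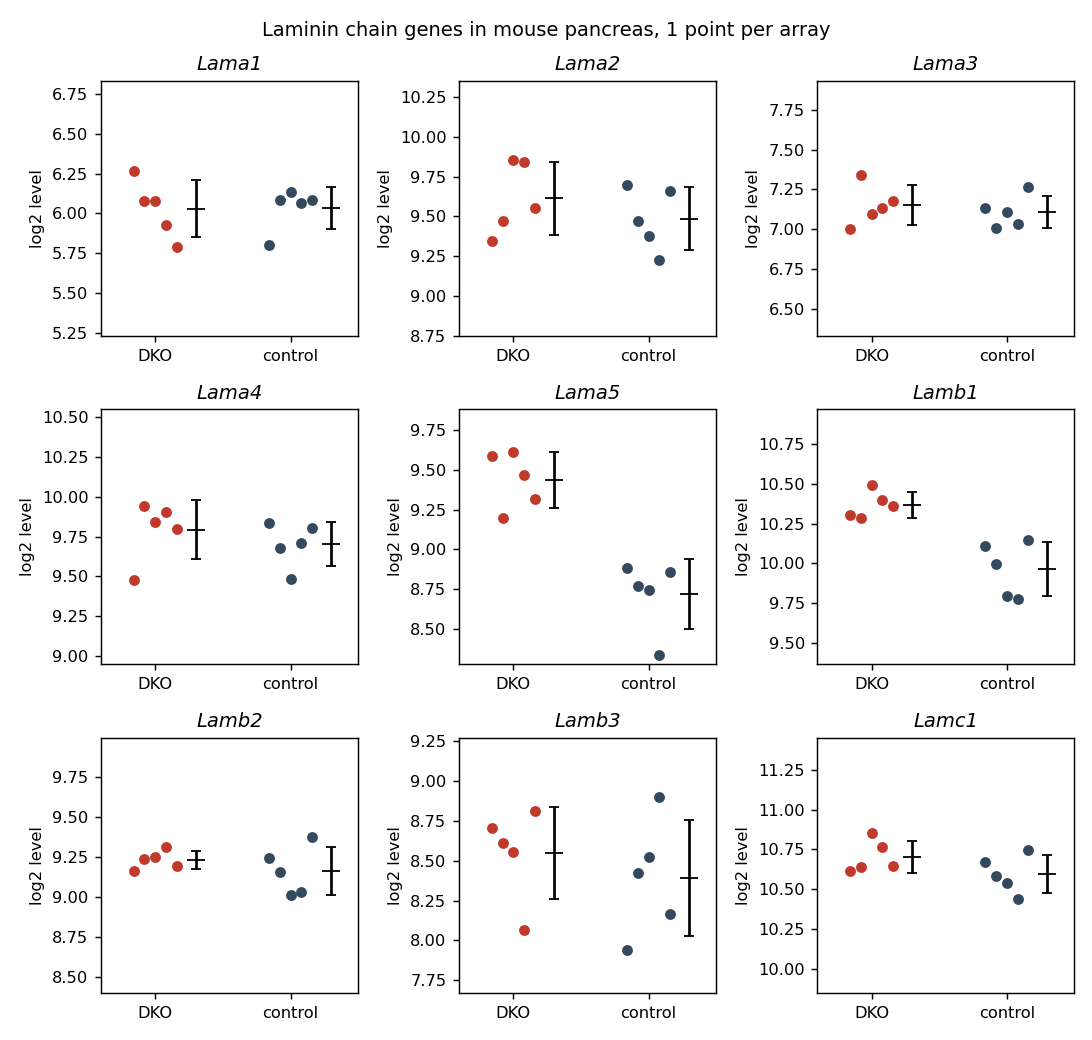
Log2 level of each laminin chain gene (y axis, the same height of scale in every panel) in 5 DKO and 5 control arrays, 1 point per array, with the mean and SD beside the points. Lama5 and Lamb1 are the panels in which the groups do not overlap, at means of 9.44 in DKO against 8.72 in control for Lama5 and 10.37 in DKO against 9.96 in control for Lamb1.

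The gamma chain that both would join, gamma 1, did not pass. Lamc1 measured 10.61, 10.64, 10.85, 10.76 and 10.64 in DKO arrays and 10.67, 10.58, 10.54, 10.44 and 10.75 in control arrays. The groups overlapped, although all 5 DKO arrays lay above the control mean. The log2 change was 0.11 with a 95% interval of -0.05 to 0.26 (limma adjusted p = 0.514), so a rise of the size seen in Lamb1 lay outside the interval. Lamc3, the gamma 3 chain gene, which is not among the 9, was lower by 0.07 with an interval of -0.18 to 0.03 (adjusted p = 0.512).

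The other alpha chains did not pass. Lama1 codes for the alpha 1 chain of the early embryo, kept in few adult tissues, and had 6.27, 6.08, 6.08, 5.93 and 5.79 in DKO arrays and 5.80, 6.08, 6.13, 6.06 and 6.08 in control arrays. All 10 values stood only slightly above the background range, and the change was -0.005 (95% interval -0.21 to 0.20). Lama2 codes for the alpha 2 chain of muscle and nerve basement membranes and had 9.34, 9.47, 9.86, 9.84 and 9.56 in DKO arrays and 9.70, 9.47, 9.38, 9.23 and 9.66 in control arrays. Both groups were spread over about the same range, and the change was 0.13 (-0.14 to 0.39). Lama3 codes for the alpha 3 chain of skin and other surface epithelia, and its levels ran from 7.0 to 7.34 in DKO and from 7.01 to 7.27 in control arrays. Its change was 0.04 (-0.12 to 0.20). Lama4 codes for the alpha 4 chain of vessels, and its levels ran from 9.48 to 9.94 in DKO and from 9.48 to 9.83 in control arrays. Its change was 0.09 (-0.12 to 0.30), and adjusted p-values of these 4 genes were 0.649 to 0.986 (limma).

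The other beta chains did not pass either. Lamb2 codes for the beta 2 chain, found at neuromuscular junctions, in kidney glomeruli and in vessels, and it measured 9.16, 9.24, 9.25, 9.31 and 9.19 in DKO arrays and 9.24, 9.16, 9.02, 9.03 and 9.38 in control arrays. The DKO values lay inside the control range, with a change of 0.07 (95% interval -0.09 to 0.23, limma adjusted p = 0.690). Lamb3 codes for the beta 3 chain of epithelial anchoring and was the most variable of the 9. It measured 8.71, 8.61, 8.55, 8.07 and 8.81 in DKO arrays and 7.94, 8.43, 8.52, 8.90 and 8.17 in control arrays. Its pooled SD within groups was 0.33, higher than in 95.1% of all genes, and its change of 0.16 had an interval of -0.24 to 0.56 (adjusted p = 0.707). A rise as large as that of Lamb1 thus lay within the interval of Lamb3.

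**Figure D2:**
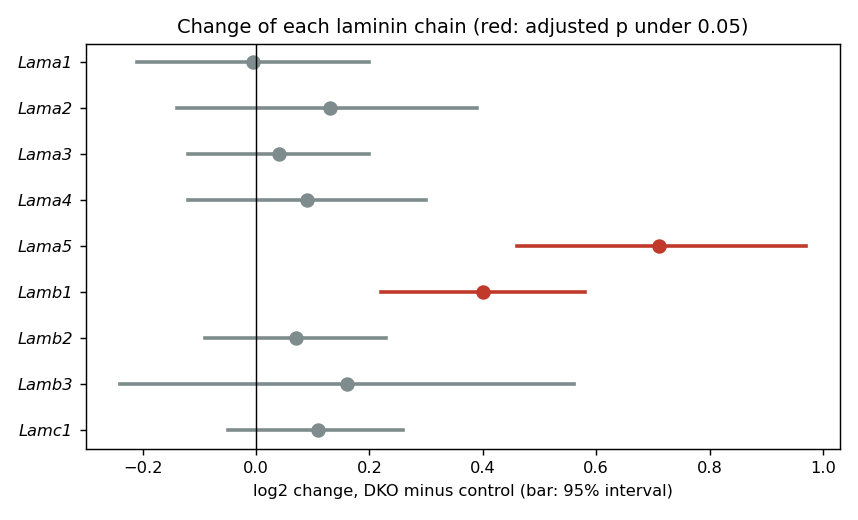
Log2 change of each chain gene, DKO minus control (x axis), with its 95% interval as a bar and red for an adjusted p under 0.05. Lama5 at 0.71 and Lamb1 at 0.40 are the chains whose intervals exclude 0, and the interval of Lamb3 is the widest.

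Whether chains that take the same place in a trimer changed unequally was asked within arrays, by the log2 difference of 2 chains, in 10 pairs of alpha and 3 pairs of beta chains. The 2 groups were compared pair by pair with an exact permutation test (two-sided, 252 splits of the arrays, smallest possible p 0.00794), adjusted over the 13 pairs. Lama5 changed more than each of the 4 other alpha chains. Its change exceeded that of Lama1 by 0.72 ± 0.15 (SE), that of Lama2 by 0.59 ± 0.12 and that of Lama3 by 0.67 ± 0.16, each with an exact p of 0.00794 (adjusted p = 0.0258) and in 5 of 5 DKO arrays above every control array. It exceeded that of Lama4 by 0.63 ± 0.18 (exact p = 0.0159, adjusted p = 0.0413), with 5 of 5 DKO arrays above the control mean and 4 above every control array. Lamb1 changed more than Lamb2 by 0.33 ± 0.04 (exact p = 0.00794, adjusted p = 0.0258), in 5 of 5 DKO arrays. Even at the smallest possible p, a single pair alone could not pass 0.05 after adjustment over 13 pairs. The adjusted values thus depend on several pairs reaching that p together. The 4 pairs with Lama5 also share the same Lama5 values and are not separate results.

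Lamb1 and Lamb3 were not shown to differ (difference 0.24 ± 0.28, SE, exact p = 0.397, adjusted p = 0.738), and neither were the 7 other pairs, all with an adjusted p of 0.738. With 1 array left out the smallest p this test can give is 0.0159. All 5 differences passed without DKO replicate 2 or control replicate 3, and none without any other single array, where the adjusted p was 0.0517 to 0.0824. Their sizes over these omissions were 0.48 to 0.82 for Lama5 against the other alpha chains and 0.31 to 0.36 for Lamb1 against Lamb2.

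**Figure D3:**
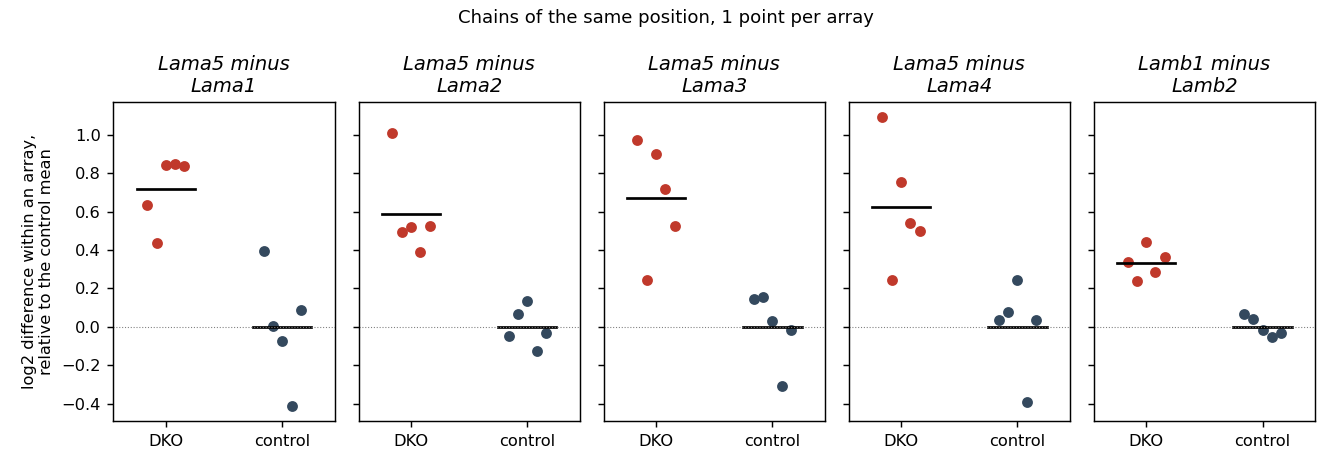
Difference of 2 chains within an array on the log2 scale, relative to the control mean (y axis), in 5 DKO and 5 control arrays with the group mean as a line, for the 5 pairs past an adjusted p of 0.05. For Lamb1 minus Lamb2 the DKO mean lies at 0.33 and every DKO array lies above every control array, and for Lama5 minus Lama4 1 DKO array lies within the control range.

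Set out by trimer, laminin-511 (Lama5, Lamb1 and Lamc1), the common laminin of adult epithelia, had log2 changes of 0.71, 0.40 and 0.11. Of 7 known combinations set out here it is the one that holds both called chains. That follows from the 2 calls and is not a further result. Laminin-521, with Lamb2 in place of Lamb1, had 0.71, 0.07 and 0.11. Laminin-411, the vessel form with Lama4, had 0.09, 0.40 and 0.11, and laminin-421 had 0.09, 0.07 and 0.11. The muscle and nerve forms laminin-211 and laminin-221 had 0.13 for Lama2, with Lamb1 and Lamb2 as above. The embryonic laminin-111 had -0.005 for Lama1. Lama3 at 0.04 and Lamb3 at 0.16, neither past the test, belong to none of these 7. Messenger levels of chains do not measure trimers, since Lamb1 and Lamc1 each serve several of them.

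Within groups, several chains varied together from array to array. After the group means were subtracted, Lamb1 and Lamc1 correlated over 10 arrays with r = 0.92 (permutation p = 0.00028, adjusted over 36 pairs 0.00504) and rho = 0.90 (permutation p = 0.00076, adjusted 0.0193). Without the 2 arrays farthest from the median, control replicates 3 and 4, r was 0.93, and it was 0.95 among DKO and 0.94 among control arrays. Lama2 and Lamc1 correlated with r = 0.93 (permutation p = 0.00015, adjusted 0.00504) and rho = 0.89 (permutation p = 0.00137, adjusted 0.0193), and with r = 0.93 without DKO replicates 3 and 4. Correlations this high with Lamc1 were shared by 0.0652% of all genes at the r of Lamb1 and 0.0401% at that of Lama2, while the middle gene had -0.05. Lama5 and Lamc1 did not pass after adjustment, with r = 0.72 (permutation p = 0.0183, adjusted 0.0659) and rho = 0.67 (permutation p = 0.0395, adjusted 0.102), and with r = 0.53 without DKO replicate 2 and control replicate 4.

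Lamb3 was negatively correlated with several chains. It correlated with Lama2 at r = -0.82 (permutation p = 0.00376, adjusted 0.0226) and rho = -0.82 (permutation p = 0.00572, adjusted 0.0316), and at r = -0.87 without DKO replicates 3 and 4. With Lamb2 it had r = -0.76 (permutation p = 0.0103, adjusted 0.0464) and rho = -0.87 (permutation p = 0.00215, adjusted 0.0193), and r = -0.95 without control replicates 3 and 5. A correlation with Lamb3 at least as negative as that of Lama2 was shared by 0.762% of all genes, while the middle gene had 0.09. In all, 8 of 36 pairs passed after adjustment by r, and 7 of them also by rho. One of these was Lamb1 with Lamb2 (r = 0.88), and 0.276% of all genes correlated that highly with Lamb2. The share of pairs that would pass among all genes was not computed, so the count is not a trait of laminins. The levels themselves, which hold the group difference, showed this in part. Control replicate 4 had the lowest Lama2, Lama5, Lamb1 and Lamc1 of all 10 arrays and the highest Lamb3. DKO replicate 3 had the highest Lama2, Lama5, Lamb1 and Lamc1, but its Lamb3 of 8.55 was not the lowest, which was 7.94 in control replicate 1. Markers of fibroblasts and stellate cells followed the order of Lama2, Lama5, Lamb1 and Lamc1 in part. Their mean was 10.86 in control replicate 4 and 10.87 in control replicate 3, the lowest of the 10 arrays. It was 11.12 in DKO replicate 3 and highest, at 11.19, in control replicate 5. Other lists were also lowest in control replicate 4 and highest in control replicate 5: mesothelium markers at 9.0 and 9.75, and basement membrane partners at 8.91 and 9.15. Among control arrays, replicates 1 and 5 had low Xist, with higher Lama2, Lamb1, Lamb2 and Lamc1 and lower Lamb3 than replicates 2, 3 and 4. The 2 DKO arrays with high Xist, replicates 1 and 4, had Lama2 at 9.34 and 9.84, against 9.47 to 9.86 in the other DKO arrays. The part of these markers and of sex in the correlations was not tested.

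**Figure D4:**
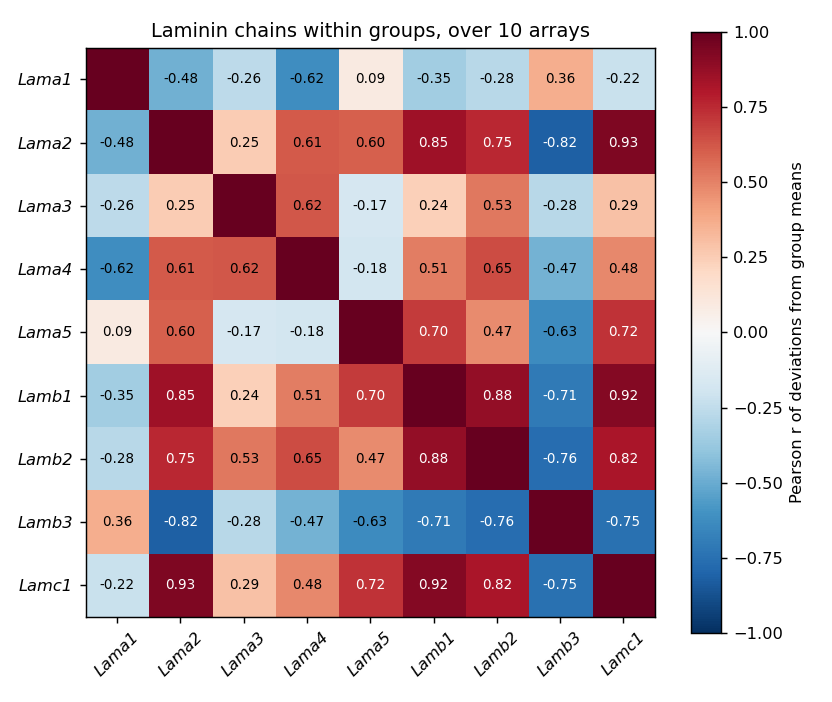
Pearson r between chain genes over 10 arrays after the mean of each group was subtracted (colour, red positive and blue negative, with the value in each cell). Lama2, Lamb1, Lamb2 and Lamc1 form a block of positive values up to 0.93, and the row of Lamb3 is negative against all of these, down to -0.82.

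Genes most like the 2 changed chains were taken by Pearson r of the level over all 10 arrays, which includes the group difference. For Lama5 these were Myrf (r = 0.976), a membrane-bound transcription factor, Psd3 (0.973), an exchange factor of Arf GTPases, and Fgfr1 (0.969), a fibroblast growth factor receptor. Their changes were 0.31 for Myrf (limma adjusted p = 0.0300), 0.27 for Psd3 (adjusted p = 0.0435) and 0.22 for Fgfr1 (adjusted p = 0.0792). This choice favours genes with the same group difference, so the changes are not separate results. After the group means were subtracted, r with Lama5 was 0.89, 0.89 and 0.90. For Lamb1 they were Acvr1 (0.971), a receptor of bone morphogenetic proteins, Slc25a4 (0.970), a mitochondrial carrier of ADP and ATP, and Ctnna1 (0.969), the alpha catenin of epithelial junctions. None of these 3 passed (limma adjusted p = 0.135, 0.0948 and 0.0589), and their r with Lamb1 within groups was 0.90, 0.90 and 0.88.

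Laminin receptors hold cells to these trimers, and of 12 measured 1 rose and none fell, with a median change of 0.20. The 1 was Itga3, the integrin alpha 3 subunit, whose product with integrin beta 1 binds laminins with alpha 3 or alpha 5 chains. Itga3 measured 8.83, 8.78, 8.96, 9.12 and 8.88 in DKO arrays and 8.71, 8.35, 8.26, 8.34 and 8.52 in control arrays. The groups did not overlap, and the log2 change was 0.48 ± 0.09 (SE, limma adjusted p = 0.0230), a call that ended in 6 of the 10 fits with 1 array omitted (adjusted p up to 0.0695). Bcam, the Lutheran glycoprotein that binds the alpha 5 chain, had 9.43 ± 0.10 in DKO and 9.12 ± 0.19 in control arrays (SD, n = 5 each), a change of 0.30 (limma adjusted p = 0.123). Dag1, the gene of dystroglycan, had 0.20 (adjusted p = 0.210) and Itgb1 0.13 (adjusted p = 0.187), the latter without overlap of the groups. Itga6, the integrin alpha 6 subunit, was the one of 12 with a change below 0, at -0.19 (adjusted p = 0.204). At an unadjusted p of 0.05 there were 10 of the 12, all but Itga2 and Itga7, against 9.18% of all genes higher and 5.66% lower at that threshold.

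Proteins that join laminins in the basement membrane lay on both sides of 0. Of 17 measured 1 rose and none fell, with a median change of 0.01. It was Col4a5, a chain of type IV collagen, with 7.65, 7.64, 7.60, 7.66 and 7.66 in DKO arrays and 7.24, 7.35, 7.24, 7.34 and 7.55 in control arrays. The groups did not overlap, and the change of 0.30 (limma adjusted p = 0.0288) lost its call in 8 of the 10 fits with 1 array omitted (adjusted p up to 0.0791). Col4a1 and Col4a2, the main chains of type IV collagen, had -0.08 (95% interval -0.23 to 0.06) and -0.01 (-0.18 to 0.16). Nid1, the nidogen that links laminin to collagen IV, had 0.01 (-0.16 to 0.18), Hspg2, the proteoglycan perlecan, 0.11 (-0.07 to 0.28) and Agrn, agrin, which binds laminin, 0.14 (0.01 to 0.27, adjusted p = 0.300). By limma none passed of 6 hemidesmosome genes (4 at an unadjusted p of 0.05), 10 proteases that may cut laminins (1), 8 chaperones of secreted proteins (2), 4 measured enzymes of dystroglycan glycosylation (1) or the 5 measured genes of Lamc3 and the netrins (1). Over all genes 9.18% were higher and 5.66% lower at that threshold. Of the hemidesmosome genes in brackets, Itga6, Itgb4 and Cd151 were already counted as receptors, and only Plec (0.13) was new. Of all genes in brackets Itga6, P4hb, Pdia6, Pomt2 and Ntn1 were lower and the others higher.

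**Figure D5:**
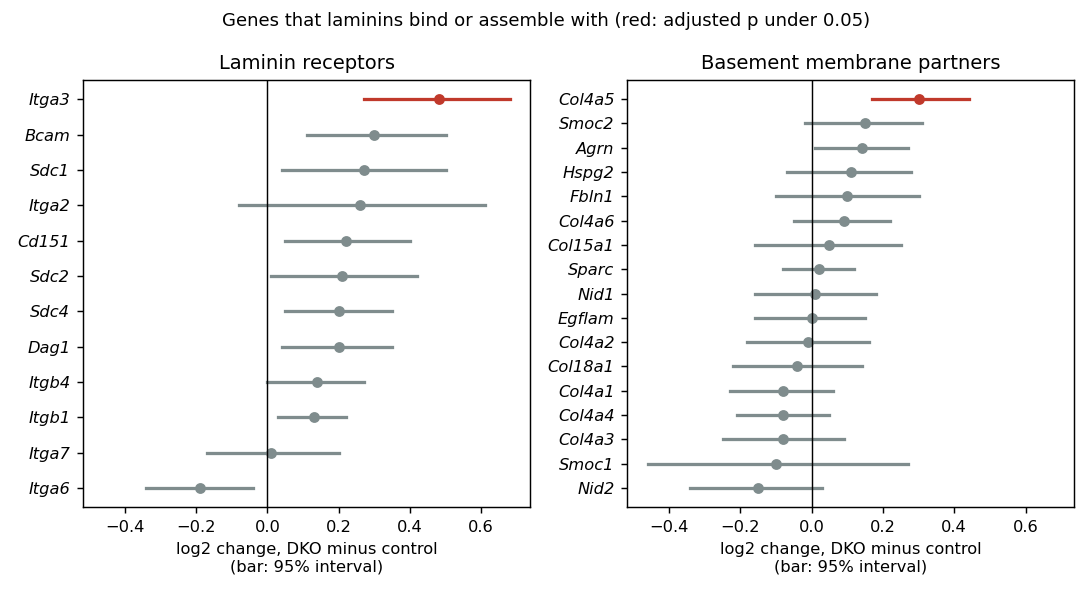
Log2 change of 12 laminin receptor genes and 17 basement membrane genes, DKO minus control (x axis), with 95% intervals as bars and red for an adjusted p under 0.05. Among receptors all but Itga6 lie above 0 and Itga3 leads at 0.48, while basement membrane genes lie on both sides of 0 and Col4a5 leads at 0.30.

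In whole tissue, more cells of a type and more RNA per cell cannot be told apart. Duct epithelium is a known site of the alpha 5 chain, and of 10 measured duct markers 5 rose in DKO and none fell. Their mean was 10.19 to 10.32 in DKO arrays and 9.66 to 9.81 in control arrays, without overlap and with every marker above background on most arrays. Krt7, a keratin of ducts, rose by 1.22 (limma adjusted p = 0.00112), Cldn4, a tight junction claudin, by 1.37 (0.00227), Krt19, a duct keratin, by 0.41 (0.0155) and Tspan8, an epithelial tetraspanin, by 0.96 (0.0248). Not every duct marker was higher, since Sox9, a transcription factor of ducts, had -0.26 (adjusted p = 0.149) with every DKO array below every control array, and the mucin gene Muc1 had -0.03 (adjusted p = 0.817). The count of 5 was 3 when DKO replicate 5 or control replicate 2, 3 or 5 was omitted. In the 10 fits with 1 array omitted, Tspan8 lost its call in 6 and Krt8, another keratin, in 8.

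Acinar and islet markers were also examined. Of 10 acinar markers 1 fell, Rbpjl, a subunit of the acinar factor PTF1 (-0.45, limma adjusted p = 0.0225), a call lost in 3 of 10 single omissions. All 10 changes were below 0, where 47.6% of all genes had a change above 0. Those of Cpa1, Cpb1, Cel, Ctrb1, Prss2 and Sycn were small, at -0.01 to -0.07. The means given above for the 2 groups did not overlap, but the closest arrays were at 12.55 in DKO and 12.57 in control. Of 8 measured islet markers none passed limma (2 at an unadjusted p of 0.05). All 8 changes were below 0, and their mean was 10.93 to 11.03 in DKO and 11.10 to 11.27 in control arrays, also without overlap. The part of duct, acinar and islet markers in the changes of Lama5 and Lamb1 was not tested.

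Marker lists of other cells that make laminin overlapped between the groups in their mean. Of 10 blood endothelium markers none passed limma (1 at an unadjusted p of 0.05), and their mean was 9.28 to 9.47 in DKO and 9.25 to 9.47 in control arrays. Of 9 markers of pericytes and smooth muscle none passed (1 unadjusted), at 8.34 to 8.51 in DKO and 8.32 to 8.51 in control arrays. Of 9 fibroblast and stellate markers none passed (0 unadjusted), at 10.91 to 11.12 in DKO and 10.86 to 11.19 in control arrays. Of 6 measured Schwann and neural markers none passed (3 unadjusted), at 7.35 to 7.45 in DKO and 7.29 to 7.38 in control arrays. These 3 were Erbb3, higher by 0.30 without overlap (limma adjusted p = 0.0521), and Cdh19 (0.21) and S100b (-0.21), both mostly within the background range. Means of mesothelium, skeletal muscle and adipocyte markers also overlapped (0 unadjusted). When DKO replicate 1, in which hepatocyte markers were high, was omitted, Lama5 was higher by 0.68 (adjusted p = 0.0220) and Lamb1 by 0.42 (adjusted p = 0.0491).

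Lama5 lies on chromosome 2, as does Stk4, the gene of the Mst1-/- allele, so DNA linked to that allele can differ between the groups. In the gene order of assembly GRCm38.p6, 151 measured genes lie between the pair, of which 2 were called higher (1.32%) and 3 lower (1.99%). Over all 1732 measured genes of that chromosome 1.62% were called higher and 0.346% lower, against 0.366% lower over all genes. None of the 8 other chain genes lies there, Lamb1 being on chromosome 12. The part of linked DNA in the Lama5 signal was not tested.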

How the data were processed

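The log2 values deposited by the authors, 1 per transcript cluster and sample, came from Affymetrix Expression Console, per the submitters' processing notes. Its version, and how it corrected background, summarized probes and normalized arrays, was not found in the labels. The values (2.79 to 13.94) were used as deposited, without a filter. Of 35556 clusters 21789 had 1 gene symbol, 1621 several and 12146 none here. The brightest cluster with 1 symbol stood for a gene, and symbols were updated through a RefSeq table of GRCm38.p6, in which 21698 of the 21789 clusters had their gene identifier.

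DKO was compared with control over 19938 genes with limma 3.58.1 in R 4.3.3 (lmFit, eBayes, two-sided, 10.96 degrees of freedom), adjusted by Benjamini-Hochberg over all genes. The fit was tested on simulated data. Exact permutation tests of chain pairs used scipy 1.17.1. Permutation p-values of correlations came from 100000 random resamples in Python 3.11.15. The 5 arrays per group limit precision (median SE 0.0754). The labels do not say that arrays stand for separate animals, so each p-value refers to the spread between these arrays. Xist was high in 2 DKO and 3 control arrays and low in the other arrays of each group, so neither group came from 1 animal. The 9 chains and all lists were chosen with earlier results of these data known. Named were all chains, up to 4 called genes per list, 3 genes most like each called chain and the deleted genes. Further genes were named after their values were seen: uncalled receptors and basement membrane genes, Lamc3, Sox9, Muc1 and Krt8. So were uncalled genes of the other laminin lists and of the Schwann and neural list. Alternatives were quantile normalization, median subtraction, dim-gene filters, trended, robust or unmoderated variance, array weights, other use of clusters, omitted arrays, replicate blocks and Xist as a covariate.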

Additional observations from a re-analysis of the deposited data

Results flagged for a closer look

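In 58 groups of 5 arrays examined, 5 held an array whose gap to its nearest neighbour took up most of the group's range. Chance gives about 1 in 20 such groups. Among the chains these were Lama1 in control replicate 1, which stood low at 5.80, and Lama5 in control replicate 4, which stood low at 8.34. Leaving out control replicate 4 gave a Lama5 change of 0.62. Among the list means, basement membrane partners were high in DKO replicate 4 at 9.13, duct markers low in control replicate 3 at 9.66 and hepatocyte markers high in DKO replicate 1 at 11.48.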

How the results depend on the processing

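Over 23 alternatives Lama5 changed by 0.62 to 0.77 and lost its call once, without control replicate 2 and DKO replicate 4 together. Lamb1 changed by 0.35 to 0.45 and lost it in 10. The count of chains called higher was 1 with an unmoderated variance, after median subtraction and with the replicate block, 0 without those 2 arrays together, and 1 to 2 with 1 array left out. No chain was called lower under any alternative. Genes called numbered 487, against 298 without moderated variance, 151 without both arrays, 178 with the replicate block and 260 to 433 with 1 array left out. The share of higher calls was 85.0%, against 72.0% after quantile normalization and 72.5% after median subtraction, which moved the median change of all genes to -0.047. Same-numbered arrays correlated at -0.267 to 0.29 in their deviations. These values cannot decide whether a number marks a shared litter or day, and the labels do not say. With that block Lamb1 had an adjusted p of 0.143 and Lama5 0.0440. With Xist as a covariate Lama5 changed by 0.7 (limma adjusted p = 0.0192) and Lamb1 by 0.37 (limma adjusted p = 0.0361). Pairs of chains past the test numbered 0 to 5 with 1 array left out and 0 with the replicate block, whose smallest p of 0.0625 cannot pass. Changes near 0 turned sign: Lama1 (-0.005 on the deposited values) was 0.03 after quantile normalization, 0.03 without both arrays and 0.02 with Xist as a covariate, and with 1 array left out Lama1 ran from -0.06 to 0.05 and Lama3 from -0.006 to 0.08. Differences of pairs that turned were Lama2 minus Lama4 (-0.03 to 0.11), Lama3 minus Lama1 (-0.02 to 0.14), Lamb3 minus Lamb2 (-0.04 to 0.25) and Lama4 minus Lama3 (-0.01 to 0.09). The cause of these shifts was not tested.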
